A study of Mus musculus with 36 samples.

Results

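Macrophage transcripts were followed through 10 genes in sorted progenitor cells of the embryonic mouse kidney: Csf1r, Mrc1, Cx3cr1, Adgre1, C1qa, C1qb, C1qc, Tyrobp, Ptprc and Fcer1g. The genes were chosen by name, with earlier results of these data known, and all 10 were found among the 22761 genes of the expression table. Counts of calls among them therefore describe this panel and are not those of an independently chosen one. The study compared the 3 progenitors that build the kidney, taken ex fetu from embryos or made from mouse embryonic stem cells (mESC), by RNA sequencing of sorted cells in 36 libraries, 4 in each of 9 groups. Nephron progenitors (E11.5_NP and E12.5_NP), stromal progenitors (E11.5_SP and E12.5_SP) and ureteric bud cells (E11.5_UB and E12.5_UB) came from CD1 mice at embryonic day (E) 11.5 or 12.5. The ES-derived counterparts of the first 2, iNP and iSP, came from E14 mESC, and ES-derived ureteric bud cells (iUB) from the Sox9-mCherry-mESC line. The labels and the account of sample pooling give Sox9 for this line, whereas the methods describe the making of a Sox8-mCherry line.

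Each embryonic library pooled the kidneys of all embryos of 1 mouse, and each ES-derived library the embryoid bodies of 1 batch of differentiation, so each ES-derived group rests on 1 cell line. Before nephron and stromal progenitors of either origin were gated, cells positive for CD31 or for EpCAM and RET were taken out, and no such step is described for the ureteric bud gate. Nephron progenitors were gated as ITGA8 high and PDGFRA low, stromal progenitors as ITGA8 low and PDGFRA high, ureteric bud cells as positive for RET and EpCAM, and iUB cells as positive for EpCAM and mCherry. The antibody panel in the methods held CD31, EpCAM, RET, ITGA8 and PDGFRA, and none to CD45 or F4/80. CD31 marks endothelial cells and is also carried by platelets and by some monocytes and other leukocytes.

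Tissue macrophages reach the embryo's organs from the yolk sac and fetal liver and settle there early, before the organ is functional. They survive on signalling through the receptor Csf1r, take up dying cells and debris, and secrete the C1q chains that start the classical complement pathway. Ptprc encodes CD45, which is shared by nearly all leukocytes, while Tyrobp and Fcer1g encode signalling adaptors that also serve other blood cells, so that none of these last 3 marks a macrophage alone.

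The 3 C1q genes lie side by side on the minus strand of chromosome 4, within chr4:136880129-136898803 (GRCm38), a stretch of 18.675 kb. RefSeq promoter windows on GRCm38.p6, each 300 bases long, were at hand for 6 of the 10 genes (Ptprc with 2 windows). Csf1r, Adgre1, C1qa and Tyrobp had no entry. The windows were searched for GAGGAA, the core letters bound by the macrophage factor PU.1, on both strands (TTCCTC on the other strand). The letters occurred in 4 of the 7 windows, against 28.3% of all 32851 windows, and a match of so short a word describes the window and is not a binding site. The stretches upstream of the start sites of C1qb (chr4:136886201-136886450, minus strand), C1qc (chr4:136893066-136893164, minus strand) and Mrc1 (chr2:14229164-14229391, plus strand) are printed below, 5′ to 3′ along the gene, because these are the 3 genes with the letters upstream of the annotated gene. Capitals mark the matched letters.
C1qb: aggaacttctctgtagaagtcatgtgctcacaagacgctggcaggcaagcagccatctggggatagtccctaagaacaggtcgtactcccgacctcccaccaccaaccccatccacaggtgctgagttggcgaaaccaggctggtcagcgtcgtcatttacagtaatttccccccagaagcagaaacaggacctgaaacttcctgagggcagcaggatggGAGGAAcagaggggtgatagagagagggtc
C1qc: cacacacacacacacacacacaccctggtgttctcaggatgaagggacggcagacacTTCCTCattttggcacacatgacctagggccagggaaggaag
Mrc1: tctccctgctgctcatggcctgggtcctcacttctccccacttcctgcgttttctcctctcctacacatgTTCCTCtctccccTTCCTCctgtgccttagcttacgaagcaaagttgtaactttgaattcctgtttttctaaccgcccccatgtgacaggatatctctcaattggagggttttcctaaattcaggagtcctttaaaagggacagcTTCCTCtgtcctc
The match lay 30 bases upstream of the start site in C1qb and 193 bases upstream in C1qc, and Mrc1 held 3 matches, at 180, 167 and 35 bases upstream. These distances are counted from the RefSeq start site, whereas the printed stretches of C1qc and Mrc1 end where the GENCODE gene begins, further upstream, so in these 2 the matches lie nearer to the printed end. The 1 remaining match was in a Ptprc window that lies inside the annotated gene, and neither Cx3cr1 nor Fcer1g had one. The letters TATAAA, searched on both strands, were found in 1 of the 7 windows, again of Ptprc, against 13.6% of all windows.

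Depth, taken here as the reads recovered for the genes of the table, ran from 13004352 to 52535113 per library. It is not the number of reads sequenced. At this depth 3 reads, the smallest number treated here as detection, correspond to between 0.0605 and 0.223 normalised CPM (reads scaled to the size of each library, the unit of all levels below). Such floors, and the intervals given below, cover counting error only. The sorts matched their labels by Ret and Epcam, since Epcam averaged 663 in E11.5_UB, 557 in E12.5_UB and 649 in iUB, and at most 26.2 in any other group. One library stood apart, however. In E12.5_UB 1 the summed ureteric bud markers stood at 2845, against 4350 to 4516 in the other E12.5_UB libraries, and the stromal markers at 785, against 198 to 218. Its endothelial markers were also higher (159, against 23.9 to 29.0), and its Itga8 level was 73.7 where the E12.5_UB group mean was 19.9. The labels also disagree on the age of the ureteric bud libraries: the titles and the cell type give one age and the cell source the other. The titles were followed, and every direction between E11.5_UB and E12.5_UB would turn round if the cell source were right.

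Macrophage transcripts were found in ureteric bud libraries taken from embryos and were scarce in all other groups. The 10 genes summed to 137, 145, 90.5 and 154 in the E11.5_UB libraries and to 73.4, 86.3, 80.2 and 131 in the E12.5_UB libraries. In the 16 libraries of embryonic nephron and stromal progenitors the sum lay between 0.273 and 3.30, and in the 12 ES-derived libraries between 0.394 and 1.29. The lowest embryonic ureteric bud library thus stood far above the highest library of any other kind, and the ranges did not overlap. In reads, the 8 ureteric bud libraries held 1754 to 4336 reads of the 10 genes each, the nephron and stromal libraries 7 to 103, and the ES-derived libraries 11 to 43. In such bulk samples, fewer macrophages and less RNA per macrophage cannot be told apart.

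**Figure D1:**
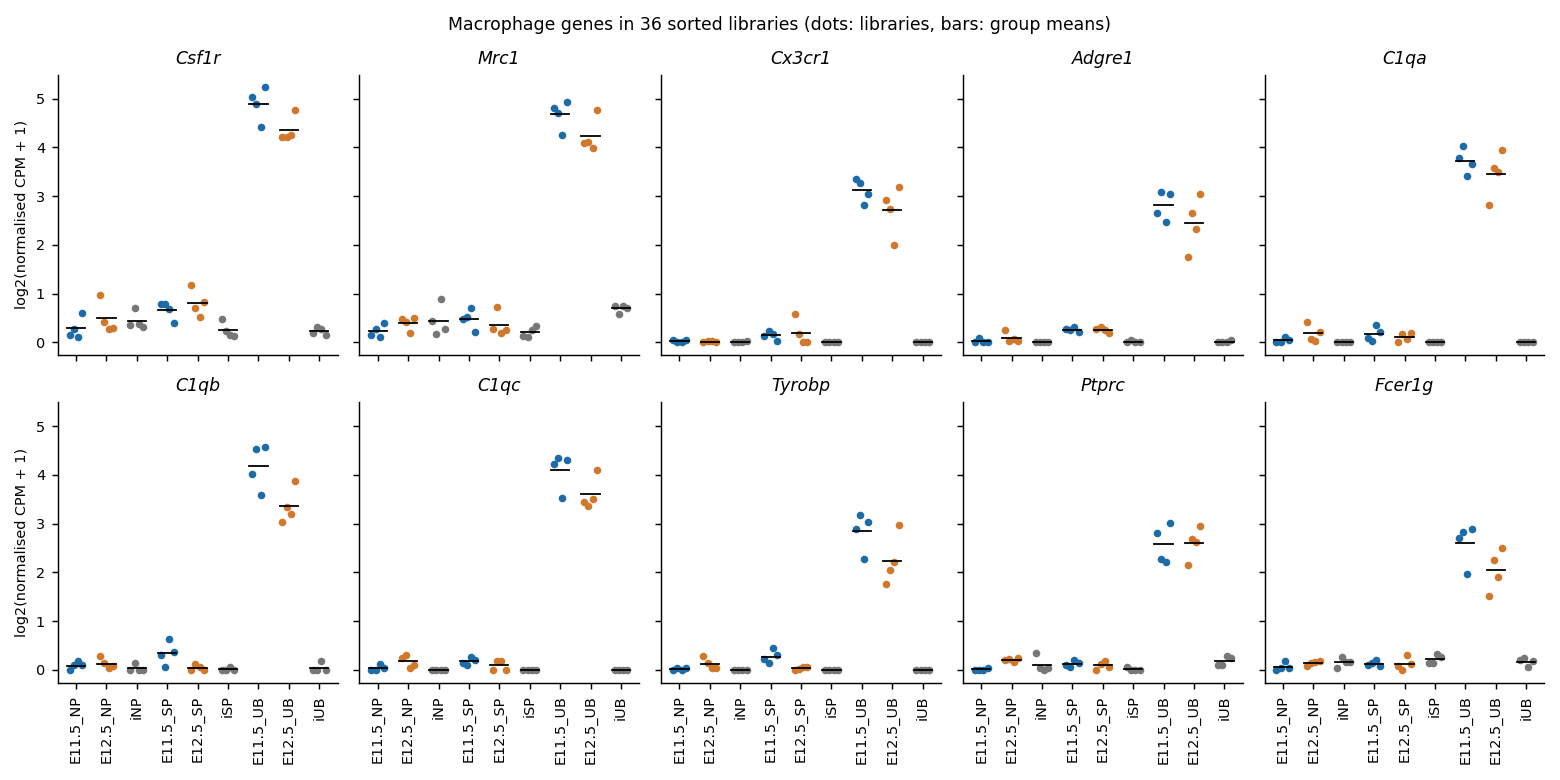
Level of each of the 10 macrophage genes, as log2(normalised CPM + 1), in all 36 libraries arranged by group, with a dot for each library and a bar at each group mean. For all 10 genes the 8 dots of E11.5_UB and E12.5_UB lie above those of the other 7 groups, whose highest single value is 1.25 CPM (Csf1r in E12.5_SP 1).

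Of the cell surface receptors, Csf1r, the receptor for the growth factors CSF1 and IL-34, was measured at 31.6, 28.7, 20.2 and 36.6 in E11.5_UB and at 17.6, 17.4, 18.0 and 26.1 in E12.5_UB. Every other library was far lower: the nephron and stromal progenitors held 0.0853 to 1.25 and the ES-derived cells 0.101 to 0.623. Csf1r never fell to 0, but its exons overlap those of Hmgxb3 on the opposite strand, and whether strand was used in counting is not given in the sources used here. Low values of Csf1r are therefore uncertain.

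Mrc1, the mannose receptor CD206 (chr2:14229392-14332057), which some endothelial cells also carry, was measured at 26.8, 25.2, 18.1 and 29.3 in E11.5_UB. In E12.5_UB it stood at 16, 16.2, 14.9 and 26.3. It was also the member with the most reads in ES-derived cells, 126 in all, and reached 0.849 in iNP 3 and 0.497 to 0.687 in the iUB libraries.

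Cx3cr1, the fractalkine receptor (chr9:119901616-120069879), was measured at 9.24, 8.68, 6.01 and 7.18 in E11.5_UB and at 6.55, 5.63, 2.97 and 8.16 in E12.5_UB. Elsewhere it was at 0 in 11 of the 12 ES-derived libraries, where 1 read was found, and reached at most 0.488 in a nephron or stromal library. Its exons overlap the antisense gene Gm33858.

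Adgre1 (chr17:57358691-57483527) encodes F4/80, the classical surface marker of mouse macrophages. Its level was 5.30, 7.48, 4.53 and 7.29 in E11.5_UB and 2.37, 5.30, 4.02 and 7.29 in E12.5_UB. Outside the ureteric bud it did not pass 0.242, and it was at 0 in 10 of the 12 ES-derived libraries.

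The C1q chains, whose 3 gene products assemble into 1 complement protein, were all present in each ureteric bud library. C1qa (chr4:136895917-136898803) was measured at 12.8, 15.2, 9.71 and 11.6 in E11.5_UB and at 6.06, 10.9, 10.3 and 14.4 in E12.5_UB. C1qb (chr4:136880129-136886187) was measured at 15.3, 22.1, 11 and 22.7 and at 7.21, 9.14, 8.23 and 13.7. C1qc (chr4:136889804-136893065) followed with 17.6, 19.3, 10.5 and 18.8 and with 9.91, 9.33, 10.3 and 16.2. In all 3 chains E11.5_UB 3 was the lowest E11.5_UB library and E12.5_UB 4 the highest E12.5_UB library. No read of C1qa or C1qc was found in the 12 ES-derived libraries together, which allows a pooled level of up to 0.0092 in each gene by counting error alone. C1qb had 7 reads there.

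Tyrobp (chr7:30413760-30417585), which encodes the adaptor DAP12, was measured at 6.46, 8.04, 3.82 and 7.18 in E11.5_UB and at 2.37, 3.12, 3.61 and 6.86 in E12.5_UB. It too had no read in any ES-derived library. Fcer1g (chr1:171229572-171234365), the gamma chain of Fc receptors, was measured at 5.52, 6.11, 2.91 and 6.44 in E11.5_UB and at 1.84, 3.79, 2.74 and 4.68 in E12.5_UB. Unlike its fellow adaptor it had reads in each of the 12 ES-derived libraries, at 0.0352 to 0.259, with 46 reads in all.

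Ptprc (chr1:138062861-138175708), the CD45 gene, was measured at 6.04, 3.86, 3.66 and 7.11 in E11.5_UB and at 3.44, 5.44, 5.16 and 6.76 in E12.5_UB. The 2 ages overlapped over most of their range. Nephron and stromal libraries did not pass 0.180, and ES-derived libraries did not pass 0.281.

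Whether ES-derived ureteric bud cells differed from their embryonic counterpart was asked for each gene with 4 libraries against 4. All 10 macrophage genes were lower in iUB than in E11.5_UB, with no overlap between the groups. On the log2(CPM + 1) scale, which understates changes of low genes, the fall ranged from -2.40 (Ptprc) to -4.65 (Csf1r), with a median of -3.42, where the median over all genes was 0.02. Adjusted p-values (limma, Benjamini-Hochberg) lay between 3.58e-08 and 4.93e-06. All 10 genes were called, in a comparison where 28.5% of the genes past the filter on low values, and 21% of all genes without a filter, were called lower in iUB. The filter, at least 1 CPM in 4 libraries, was met by these genes through the embryonic group alone, so the count was also made without it and was again 10. The exact permutation test gave 0.0286 for each gene (two-sided), which is the smallest p that 4 libraries against 4 can reach.

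In pooled reads the difference was large. Csf1r was 157-fold higher in E11.5_UB than in iUB (95% interval of counting error 97.7 to 269), where 17 reads were found, and Mrc1 was 39.6-fold higher (30.5 to 52.5), with 57 reads in iUB. C1qc was at least 499-fold higher, C1qa at least 370-fold, Cx3cr1 at least 235-fold and Tyrobp at least 192-fold, each against 3 reads over the iUB group, since none had a read there. C1qb had 3 reads in iUB and Adgre1 1, which puts their ratios at 533 (182 to 2585) and 552 (98.7 to 21836). The smallest ratio was that of Ptprc, at 36.5.

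The comparison of iUB with E12.5_UB gave the same picture for each gene. All 10 genes were lower in iUB, by -1.87 (Fcer1g) to -4.12 (Csf1r) on the log2 scale, with a median of -3.01 beside -0.01 for all genes. limma called all 10 with and without the filter, against 21.2% and 14.8% of all genes tested, and the exact p was 0.0286 for each. Csf1r was 107-fold higher in E12.5_UB than in iUB and Mrc1 29.7-fold, and the bounds for the 4 genes without a read in iUB were at least 121-fold (Tyrobp), 181-fold (Cx3cr1), 318-fold (C1qa) and 352-fold (C1qc). The 2 comparisons share the iUB libraries.

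Ureteric bud libraries were also set against the other progenitors of the same age, which came from the same kind of tissue through another gate. At E11.5 all 10 genes were higher in E11.5_UB than in E11.5_NP, by 2.53 to 4.60 (median 3.38 on the log2 scale, all genes -0.03), or 114.8- to 603-fold in pooled reads. limma called all 10 with the filter, where 28.7% of genes were called higher, and without it, where 21.7% were. Against E11.5_SP the differences were 2.46 to 4.23 (median 3.26, all genes 0.01), or 33.2- to 138-fold, with all 10 called beside 26.8% of genes with the filter and 19.5% without.

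The same comparisons were made at E12.5. All 10 genes were higher in E12.5_UB than in E12.5_NP by 1.91 to 3.87 (median 2.96, all genes -0.04), or 31.8- to 463-fold, beside 18.4% of genes called higher with the filter and 14% without. They were higher than in E12.5_SP by 1.92 to 3.88 (median 2.92, all genes 0.02), or 23.8- to 223-fold, beside 24.6% and 17.9% of genes. The exact p was 0.0286 for every gene in all 4 of these comparisons, and no ureteric bud library overlapped a nephron or stromal library for any of the 10 genes.

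Traces of the genes outside the ureteric bud were few reads, and they were not spread evenly. Of 40 values in each group (10 genes in 4 libraries), none was 0 in E11.5_SP, 2 were 0 in E12.5_NP, 10 in E12.5_SP and 16 in E11.5_NP, whereas 22 were 0 in iUB, 23 in iNP and 25 in iSP. The summed level was highest in E11.5_SP, at 1.64 to 3.30, followed by E12.5_SP (1.42 to 2.22) and E12.5_NP (0.724 to 2.71), which overlapped. It lay at 0.994 to 1.29 in iUB, 0.615 to 1.26 in iNP, 0.273 to 1.09 in E11.5_NP and 0.394 to 0.628 in iSP. None of the 10 genes met the filter in the comparisons among these groups, so the tests that follow were fitted over all genes without it.

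In E11.5_SP every one of the 10 genes had reads in each library. There, Adgre1 stood at 0.156 to 0.238 and Tyrobp at 0.0973 to 0.358, while in iSP Adgre1 had 1 read and Tyrobp none. limma called 8 of the 10 genes lower in iSP than in E11.5_SP, beside 24.9% of all genes, with changes as small as these levels imply: Csf1r fell by 0.41 (adjusted p = 0.00991) and Adgre1 by 0.25 (adjusted p = 0.000547, both limma). In a fit of all 36 libraries the genes met the filter through the embryonic ureteric bud libraries, and the spread was shared with them. The SE of Csf1r was then 0.17, against 0.11 in the fit of 8 libraries, and that of Adgre1 0.15, against 0.04, for the same differences. That fit called Csf1r alone (adjusted p = 0.0351, limma), beside 29.7% of genes. Ptprc and Fcer1g were called by neither fit, and Fcer1g had more reads in iSP (18) than in E11.5_SP (12). The exact test reached its smallest value of 0.0286 for 7 genes. Against E12.5_SP, limma called 2 genes lower in iSP, Csf1r by -0.55 (adjusted p = 0.00906) and Adgre1 by -0.25 (adjusted p = 0.00155), beside 21.3% of all genes. The fit of all 36 libraries called Csf1r alone here too, beside 27.4% of genes. These calls rest on low values of Csf1r, which are uncertain because its exons overlap those of Hmgxb3. The erythroid markers in these sorts summed to 85.2 to 1609 in E11.5_SP and 291 to 2943 in E12.5_SP, against 0.295 to 0.902 over all ES-derived libraries. Like the macrophage trace, they were thus lower in iSP than in either stromal group. Between E11.5_SP and E12.5_SP the erythroid mean rose from 576 to 1750, whereas the mean sum of the 10 genes was 2.25 and 1.79. The part of erythroid cells in the trace was not tested. The megakaryocyte markers were likewise lower in iSP, at 2.57 to 3.40 against 4.87 to 6.81 in E11.5_SP and 8.53 to 11.05 in E12.5_SP. Neutrophil and mast cell markers were not: they summed to 10.9 to 13.2 in iSP against 2.63 to 5.32 in E11.5_SP and 1.56 to 3.41 in E12.5_SP. Lymphoid markers overlapped, at 1.11 to 1.51 in iSP against 0.260 to 1.31 and 0.367 to 4.98.

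Between nephron and stromal progenitors at E11.5, limma called 3 genes lower in E11.5_NP, beside 16.4% of all genes: Csf1r (-0.38), Adgre1 (-0.24) and Tyrobp (-0.25). The exact test gave 0.0286 for Adgre1 and Tyrobp and 0.0571 for Csf1r, and the fit of all 36 libraries, with its shared spread, called none of the 3 (adjusted p from 0.0773 to 0.226, limma). At E12.5 no gene was called lower in E12.5_NP without a replicate block, beside 12.8% of all genes. In limma 2 had an unadjusted p under 0.05: Adgre1, lower in E12.5_NP (-0.16), and Ptprc, higher there (0.11). Same-numbered libraries of these 2 groups deviated together, however. When that number entered the fit as a block, an alternative chosen after seeing the data, Csf1r (-0.31 ± 0.09, SE; adjusted p = 0.0235, limma) and Adgre1 (-0.16 ± 0.05; adjusted p = 0.0490) were called lower in E12.5_NP, beside 20.2% of all genes. Csf1r stood at 0.954, 0.343, 0.204 and 0.232 in E12.5_NP 1 to 4 and at 1.25, 0.625, 0.430 and 0.780 in E12.5_SP 1 to 4. Within each number both genes were lower in the nephron progenitors. The low values of Csf1r remain uncertain here too, because of the overlap with Hmgxb3. No gene was called between iNP and E11.5_NP, where 20.8% of all genes were lower in iNP and none of the 10 reached an unadjusted p under 0.05. The same held between iNP and E12.5_NP, beside 13.2% of all genes, with 2 genes (C1qa and C1qc) under 0.05 before adjustment. The exact test, however, gave its smallest value of 0.0286 for 4 genes, Adgre1, C1qa, C1qc and Tyrobp, which had no read in iNP and were at least 2.81-fold (Adgre1) to 5.62-fold (C1qa and C1qc) higher in E12.5_NP. With age, Ptprc alone was called, higher in E12.5_NP than in E11.5_NP by 0.20 (adjusted p = 0.0268 in limma, 24 reads against 1), beside 1.24% of all genes. The fit of all 36 libraries, with its shared spread, did not call it (adjusted p = 0.413, limma). No gene was called lower in E12.5_SP than in E11.5_SP, beside 2.68% of all genes, and C1qb and Tyrobp were under 0.05 before adjustment in limma. The exact test gave its smallest value of 0.0286 for Tyrobp, with 27 reads in E11.5_SP against 3 in E12.5_SP, a ratio of 7.29 (2.24 to 37.6, counting error), and no overlap.

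Between the 2 ages of the embryonic ureteric bud, 1 of the 10 genes passed the test. The summed level averaged 131 ± 28.3 (SD, n = 4) in E11.5_UB and 92.6 ± 25.8 (SD, n = 4) in E12.5_UB. Of the 10 genes, 9 had a lower mean log2 level in E12.5_UB, and the groups overlapped for all 10. The median difference was -0.46, where that of all genes was 0.03. C1qb alone was called with the filter, which all 10 genes met in both groups: it fell by 0.81 ± 0.25 (SE; adjusted p = 0.0393, limma), beside 12.3% of genes called lower. Without the filter no gene was called, beside 6.62% of all genes, and Csf1r and C1qb had an unadjusted p under 0.05 in limma. edgeR and DESeq2 each called 2 genes lower, Csf1r and C1qb, beside 13.3% (edgeR) and 16.6% (DESeq2) of genes. A fit of all 36 libraries called 5 lower (Csf1r, C1qb, C1qc, Tyrobp and Fcer1g), beside 7.51% of genes.

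The next largest differences were those of Tyrobp (-0.60 ± 0.28, SE; adjusted p = 0.145, limma), Fcer1g (-0.55 ± 0.26; adjusted p = 0.152) and Csf1r (-0.53 ± 0.19; adjusted p = 0.0632). C1qc differed by -0.49 ± 0.22, Mrc1 by -0.43 ± 0.20, Cx3cr1 by -0.41 ± 0.25, Adgre1 by -0.37 ± 0.27 and C1qa by -0.26 ± 0.23, and none of these passed the test. Ptprc differed by 0.02 ± 0.23 (adjusted p = 0.958, limma). The exact permutation p ranged from 0.0571 (Csf1r, C1qb and C1qc) to 0.943 (Ptprc). The call of C1qb rested on single libraries, since its adjusted p (limma) ran from 0.0160 to 0.109 as each library was left out in turn. No gene was called without E11.5_UB 1, 2 or 4 or without E12.5_UB 2 or 3, where 7.79% to 10.03% of genes were called lower. In contrast, 4 were called without E11.5_UB 3 (beside 11.7% of genes) and 4 without E12.5_UB 4 (beside 9.54%). Without E12.5_UB 1, the library with the stromal and endothelial transcripts, 2 were called, beside 19.1%.

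**Figure D2:**
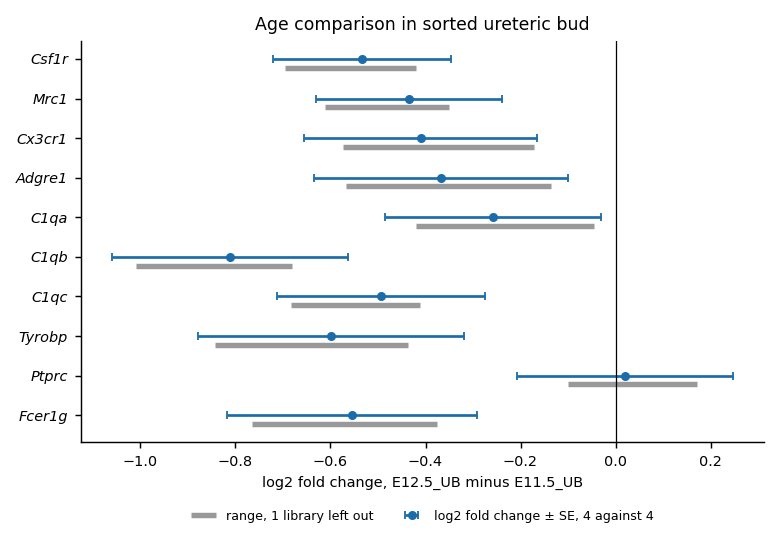
Difference between E12.5_UB and E11.5_UB for each of the 10 macrophage genes, as the log2 fold change on the x axis with its error bar. Of the 10 points, 9 lie below 0, Ptprc lies at 0.02, and C1qb (-0.81) is the 1 gene whose adjusted p passed 0.05.

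Whether age acted differently in the ureteric bud and in the other progenitors was tested as the difference of the age effects over 16 libraries. None of the 10 genes was called for ureteric bud against nephron progenitors, beside 2.21% of all genes, or against stromal progenitors, beside 4.24%. The genes met the filter here through the ureteric bud libraries. In the other progenitors they lay so near 0 that log2(CPM + 1) leaves little room for an age effect. The test therefore says little on age in those cells, and it was not made without the filter. The lowest adjusted p was that of C1qb against nephron progenitors (0.163, limma), and 6 genes there and 1 against stromal progenitors had an unadjusted p under 0.05. edgeR called 1 gene, Ptprc, against nephron progenitors (adjusted p = 0.0353), beside 1.35% of all genes. Ptprc differed by 0.02 between the ages of the ureteric bud, and it had 24 reads in E12.5_NP against 1 in E11.5_NP.

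Within the ureteric bud the libraries rose and fell together over the 10 genes. E11.5_UB 3 was the lowest of its group for 10 of the 10 genes, and E12.5_UB 4 the highest of its group for 10 of 10. E12.5_UB 1 was the lowest E12.5_UB library for 6 of the 10. In the make-up of the sum, Csf1r took 22.3% in E11.5_UB and 21.6% in E12.5_UB, Mrc1 19.0% and 19.8%, and C1qc 12.5% and 12.4%. Single libraries varied more in other genes, with Cx3cr1 at 3.71% to 8.93% and Adgre1 at 3.24% to 6.15% of the sum in E12.5_UB. C1qb took 13.3% and 10.3%, and Ptprc 3.94% and 5.66%, both with an exact p of 0.0286 that became 0.143 when adjusted over the 10 shares. Shares of 1 sum are tied to each other, so that a fall of one lifts the rest.

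**Figure D3:**
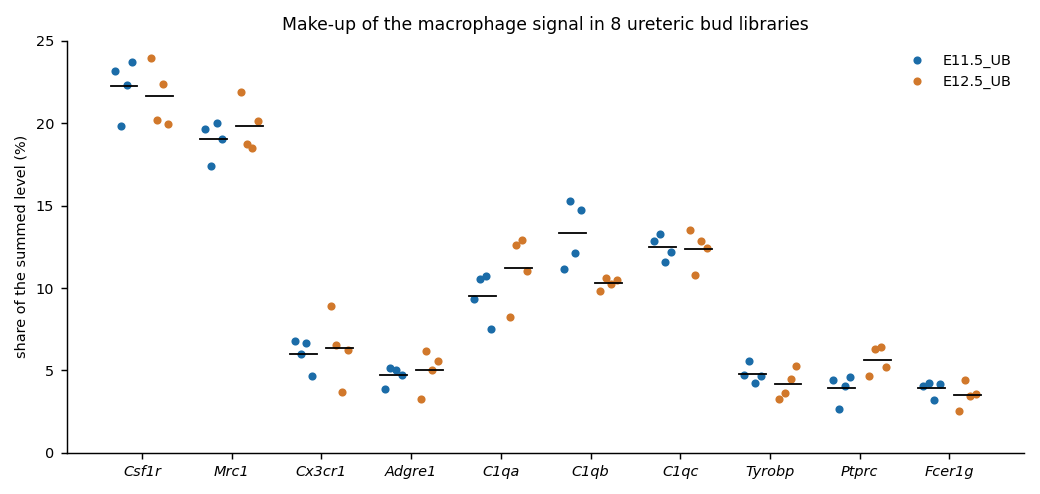
Share of each macrophage gene in the summed level of the 10 genes, in percent, for each E11.5_UB and E12.5_UB library (dots), with a line at each group mean. Csf1r and Mrc1 take the largest shares at both ages, and C1qb is the gene whose 4 E11.5_UB dots all lie above its 4 E12.5_UB dots. The shares are of CPM, which is not corrected for gene length, so they do not rank the genes by level.

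Per kilobase of exon, the only scale on which levels of different genes can be set side by side here, the order was nearly the same at both ages. In E11.5_UB the C1q chains and adaptors led: C1qb at 16.3 ± 5.20 CPM per kb (SD, n = 4), C1qa at 11.8, Tyrobp at 9.56, C1qc at 8.57 and Fcer1g at 6.0. Csf1r (5.07) and Mrc1 (3.90) came next, and each of these overlapped its neighbour in the order. Adgre1 (1.90) and Cx3cr1 (1.73) lay apart below Mrc1 and overlapped each other, and Ptprc, with 18.313 kb of annotated exons, was lowest at 0.282. In E12.5_UB C1qa (10.03) stood before C1qb (8.80), which overlapped it, and the order of the other 8 was the same, down to Ptprc at 0.284. The exon lengths take every annotated transcript of a gene together and so understate a gene with many long forms.

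Other genes of the macrophage programme were read from lists written with earlier results of these data known. Of 30 further macrophage genes 27 were in the table, and each of the 27 had reads in both embryonic ureteric bud groups. In iSP and in iUB 13 of the 27 had none. The list was not limited to the ureteric bud, however. Its sum was 169 to 262 in E11.5_UB and 139 to 207 in E12.5_UB, against 88.5 to 100 in iSP and 73.0 to 132 in E12.5_SP. It was lowest in E11.5_NP, at 31.8 to 48.2. Of the 27, 21 passed the filter in E11.5_UB against E11.5_NP, of which 20 were called higher in E11.5_UB and none lower, beside 28.7% of genes called higher. A gene at 0 elsewhere passed the filter through E11.5_UB alone, and without the filter 26 of the 27 were called higher, beside 21.7%. Against stromal progenitors some went the other way. Without the filter 23 were higher and 2 lower in E11.5_UB than in E11.5_SP, beside 19.5% of genes called higher. In E12.5_UB against E12.5_SP 22 were higher and 3 lower, beside 17.9% called higher and 15.2% lower. Ctss, a lysosomal protease, averaged 7.25 ± 1.45 (SD, n = 4) in E11.5_UB and 4.57 ± 1.21 in E12.5_UB, and it was at 0 in every ES-derived library. F13a1, the clotting factor subunit that fetal macrophages carry, averaged 9.05 ± 2.68 and 5.38 ± 1.35. Lyve1, a hyaluronan receptor of macrophages and lymphatic vessels, averaged 2.23 ± 0.661 and 2.58 ± 0.662, and Timd4, the phosphatidylserine receptor of many resident macrophages, only 0.182 and 0.164. Against iUB, 19 of 21 were called higher in E11.5_UB and 16 of 19 in E12.5_UB, beside 28.5% and 21.2% of genes, and without the filter 24 and 22 of the 27 were, beside 21% and 14.8%. With the filter, Mertk was called lower in E11.5_UB than in iUB. Mertk, a receptor for dying cells that is not limited to macrophages, was higher in stromal progenitors (22.7 in E11.5_SP) than in E11.5_UB (6.56).

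With age, 5 of the 23 further macrophage genes tested fell and 1 rose in the ureteric bud, where 12.3% of genes fell. Without the filter 2 of the 27 fell and 1 rose, beside 6.62% that fell. Those that fell (limma) were the chemokine gene Ccl4 (-1.40), Rac2 (-0.72), Ms4a6c (-0.70), Ly86 (-0.58) and Ctss (-0.57), and Mertk rose by 0.74. The median difference of all 23 genes tested was -0.47, beside -0.46 for the 10 genes above. Of 16 partner receptors and kinases, 10 were tested and 2 fell (1 of 16 without the filter), namely Trem2 (-0.53), a receptor that signals through Tyrobp, and Fcgr1 (-0.72), an Fc receptor that signals through Fcer1g. Trem2 averaged 2.53 ± 0.694 (SD, n = 4) in E11.5_UB and 1.43 ± 0.269 in E12.5_UB, and Fcgr1 2.78 ± 0.897 and 1.25 ± 0.192, and neither had a read in iUB. These 2 genes were named after their values were seen.

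The 2 ligands of Csf1r were differently placed. Csf1 was highest in stromal progenitors, at 114 ± 18.9 in E11.5_SP and 93.7 ± 13 in E12.5_SP (SD, n = 4), where Csf1r itself stayed at or below 1.25. It averaged 12.5 ± 2.80 in E11.5_UB and 11.1 ± 3.22 in E12.5_UB, and limma called it lower than in the stroma by -3.11 (adjusted p = 1.92e-07) and -3.01 (adjusted p = 3.99e-06). In iUB, where the 10 genes summed to 0.994 to 1.29, Csf1 averaged 21.9 ± 4.34 and was called higher than in E11.5_UB by 0.77 (adjusted p = 0.00569, limma). Il34, the other ligand, was highest in the ureteric bud at 0.417 ± 0.153 in E11.5_UB and 1.44 ± 0.718 in E12.5_UB, and averaged at most 0.109 elsewhere. Cx3cl1, the ligand of Cx3cr1, averaged 8.91 ± 1.5 and 6.56 ± 1.54 in the ureteric bud and 1.03 to 7.32 elsewhere.

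Among 12 transcription factors of myeloid cells, Spi1, which encodes PU.1, kept closest to the 10 genes. It averaged 8.49 ± 3.54 in E11.5_UB and 5.92 ± 2.28 in E12.5_UB (SD, n = 4), and 0.114 to 0.645 in the other groups. E11.5_UB 3 (4.12) was again the lowest E11.5_UB library and E12.5_UB 4 (8.89) the highest E12.5_UB library. Other factors of the list were not limited to the libraries with macrophage transcripts: Runx1 averaged 60.5 in E11.5_UB, 16.7 in E12.5_UB and 74.2 in iUB, and Maf was higher in E11.5_NP (55.5) than in E11.5_UB (7.17). With age in the ureteric bud Runx1 (-1.85) and Cebpb (-0.90) fell and Myb rose (0.73), while Spi1 did not pass the test (-0.43 ± 0.32, SE; adjusted p = 0.352, limma).

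**Figure D4:**
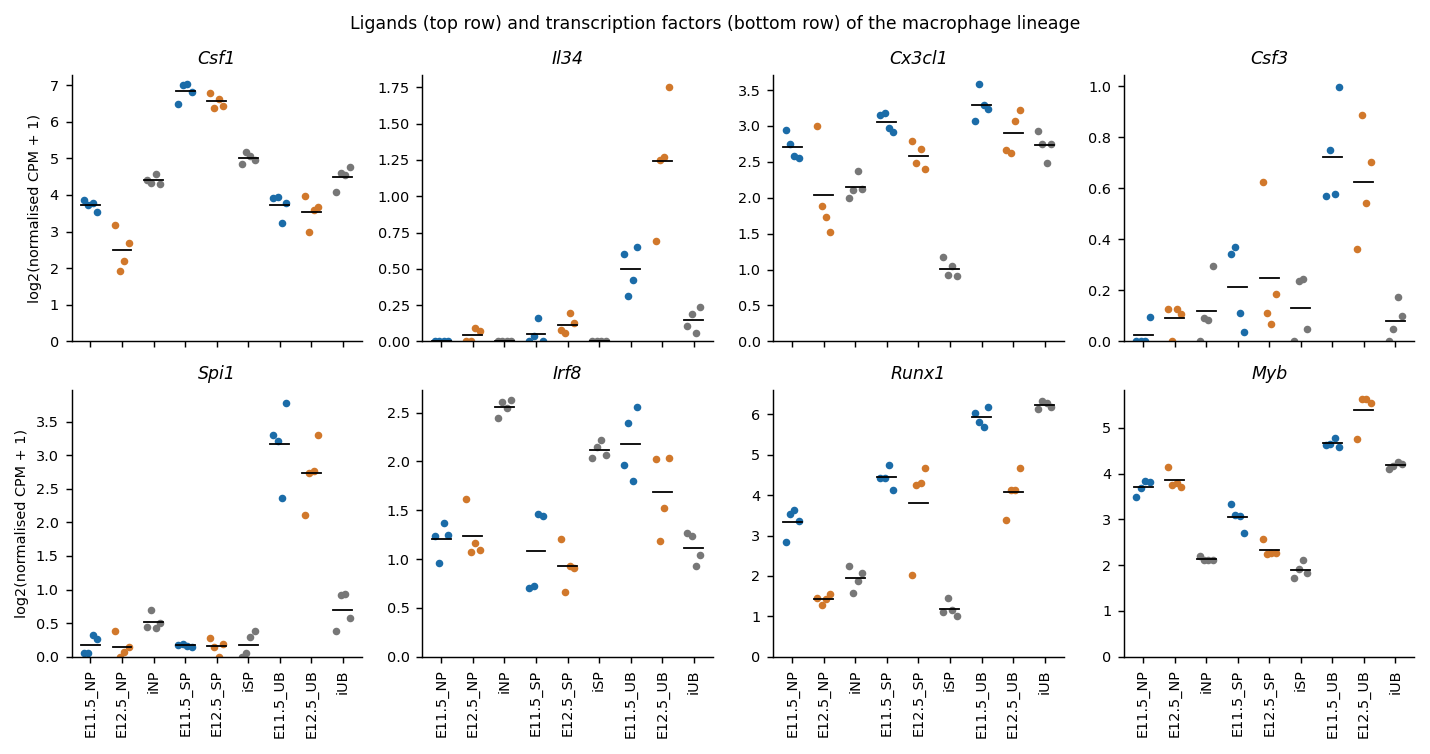
Levels of ligand genes (top row) and transcription factor genes (bottom row) of the macrophage lineage as log2(normalised CPM + 1), with a dot for each of the 36 libraries and a bar at each group mean. Csf1 is highest in the E11.5_SP and E12.5_SP libraries (means 114 and 93.7 CPM), whereas Spi1 is highest in E11.5_UB and E12.5_UB (means 8.49 and 5.92 CPM).

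Complement genes beyond C1q were called in both directions. Of 12 genes, 7 were tested in E11.5_UB against E11.5_NP and 4 were called higher and 1 lower, beside 28.7% of genes called higher and 31.5% lower. In E12.5_UB against E12.5_SP 8 were tested, of which 3 were higher and 4 lower, beside 24.6% of genes called higher and 21.8% lower. Without the filter, 4 of the 12 were higher and 1 lower in the first comparison, beside 21.7% and 21.6% of genes. In the second, 4 were higher and 4 lower, beside 17.9% and 15.2%. C1s1 and C1ra, the proteases that form the first complement complex with C1q, were highest in stromal cells: C1s1 averaged 13.8 in E12.5_SP and 0.909 in E12.5_UB, and C1ra 2.04 and 0.214. The receptors C3ar1 and C5ar1, in contrast, averaged 6.72 and 2.24 in E11.5_UB and 5.29 and 2.03 in E12.5_UB, and they did not pass 0.196 and 0.163 in any library of another group.

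Markers of other cells were read in the same libraries, since these sorts could hold other blood cells. Only 3 of 10 lymphoid markers and 5 of 12 neutrophil and mast cell markers were in the table used. The lymphoid markers summed to 3.02 to 4.05 in E11.5_UB, 3.31 to 5.07 in E12.5_UB and up to 7.08 in E12.5_NP. The neutrophil and mast cell markers summed to 3.8 to 5.59 in E11.5_UB and 10.9 to 13.2 in iSP. The 5 megakaryocyte markers present (of 7) summed to 9.71 to 12.2 in E11.5_UB and 6.88 to 15.3 in E12.5_UB. Endothelial markers summed to 32.7 to 46.5 in E11.5_UB and 23.9 to 159 in E12.5_UB. Erythroid markers summed to 6.39 to 58.9 and 6.49 to 91.9 there, where the lowest stromal library held 85.2. Neither list was at 0 in the ureteric bud, and the part of other blood cells in Ptprc, Tyrobp and Fcer1g was not tested. Of 8 genes of microglia, the macrophages of the brain, P2ry12 averaged 0.465 and Siglech 0.262 in E11.5_UB, while Tmem119 averaged 0.713 there and 109 in E11.5_SP, so that it did not mark macrophages in these cells.

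**Figure D5:**
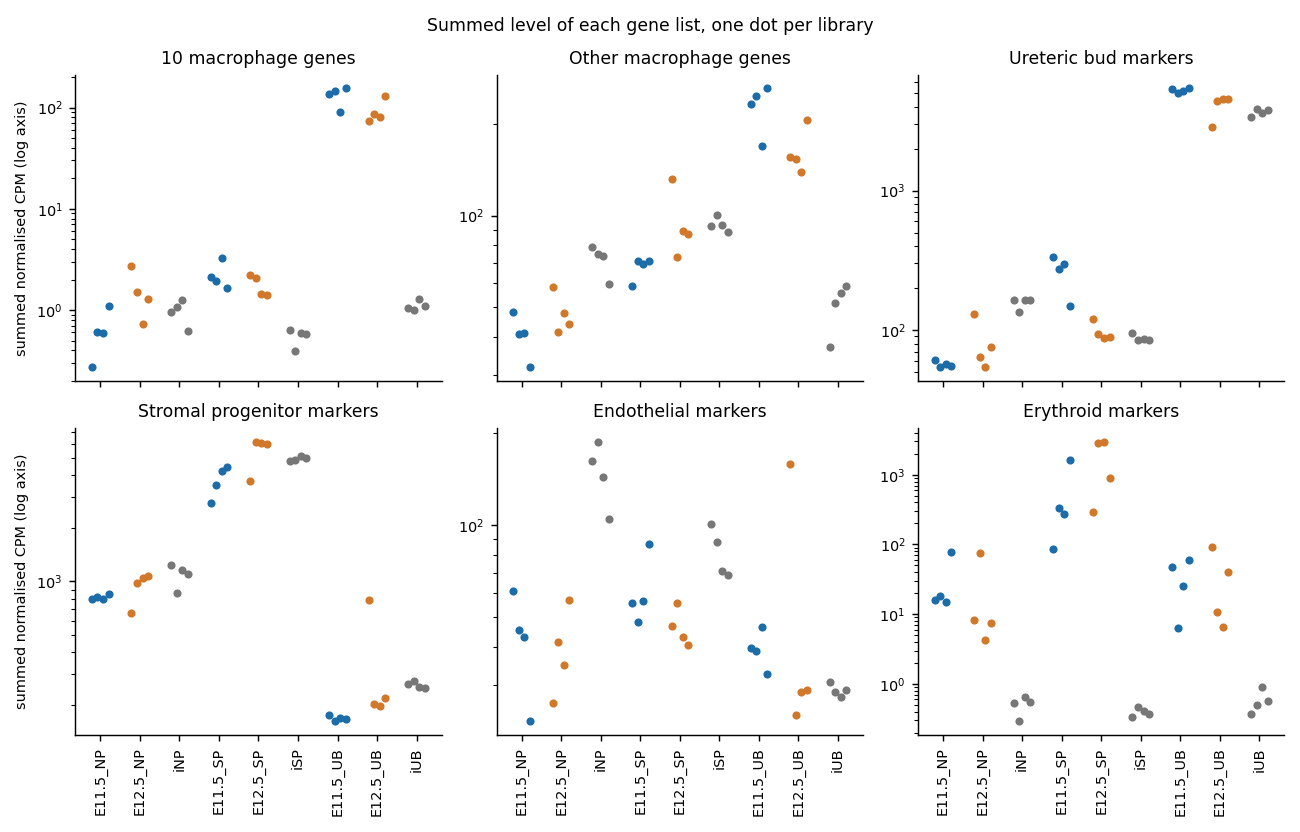
Summed level of each gene list in every library on a log axis (normalised CPM), with one dot per library and the 9 groups side by side. The macrophage genes stand at 73.4 to 154 in the ureteric bud libraries from embryos and at or below 3.30 in all others, whereas the erythroid markers are highest in the stromal libraries (up to 2943).

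The genes whose pattern was most like that of the 10 were ranked by Pearson's r with their mean log2 level over 36 libraries, among 16001 genes. The points share libraries and their depth, the 8 ureteric bud libraries from embryos lie apart from all others, and r is given as a description. The 10 genes apart, r was highest for C3ar1 (0.998), the complement receptor, Ctss (0.997), Cybb (0.996), the oxidase subunit of phagocytes, Fcrls (0.995) and F13a1 (0.995). Lyz2, Vav1, C5ar1, Rac2, Ccl3, Ighm, Cd53, Nckap1l, Ly86 and Msr1 completed the first 15, with r down to 0.985. In all, 55 genes had r above 0.95 and 113 above 0.9. C3ar1 averaged 6.72 ± 1.23 in E11.5_UB and 5.29 ± 1.43 in E12.5_UB (SD, n = 4), and no library of another group passed 0.196. Ighm, the heavy chain gene of B cells, averaged 5.22 ± 1.28 in E11.5_UB and 2.75 ± 0.0668 in E12.5_UB and had no read in an ES-derived library.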

How the data were processed

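RNA from sorted cells was sequenced with a stranded mRNA kit, and the submitters' processing notes and the methods name Cutadapt and STAR, then filtering and normalisation with edgeR; the counting program and its use of strand are not given in the sources used here. The notes name GRCh38 as the genome, but all gene identifiers are those of mouse Ensembl genes. The deposited signal values are normalised CPM (reads scaled to the size of each library), made by the authors: 100% of them were whole multiples of 1 read (tolerance 0.01 read), so reads per gene were recovered. A second deposited table holds the authors' group means, log fold changes, p-values and FDR and was not used.

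The 10 genes and all lists were chosen with earlier results of these data known. Genes named beside them were the list members past the test and the 15 genes with the highest correlation. For each of 15 comparisons, log2(CPM + 1) of the 8 libraries was fitted over all genes with limma 3.58.1 (R 4.3.3), with Benjamini-Hochberg adjusted p under 0.05 as a call, after a filter of at least 1 CPM in 4 libraries or without it. Exact two-sided permutation tests over 70 splits used SciPy 1.17.1. Alternatives were the pseudocount 0.1, other filters and scalings, edgeR 4.0.16 and DESeq2 1.42.0 on the recovered reads, a replicate block, and each library left out. The fits were tested on simulated data with known changes. Exon lengths, positions and overlaps came from GENCODE vM21 (GRCm38), which held 99.48% of the genes.

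Libraries of a group came from separate mice or batches of differentiation, and no pair was identical. Replicate numbers come from the titles. Same-numbered libraries deviated together in all 4 pairs only between E12.5_NP and E12.5_SP (correlation 0.543 to 0.700), where no macrophage gene met the filter, so a fit with the block and without the filter was added after the data were seen, as were the list counts without the filter. Between E11.5_UB and E12.5_UB the correlations were -0.179 to 0.0393, so the numbers showed no pairing of those libraries.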

Additional observations from a re-analysis of the deposited data

Results flagged for a closer look

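Within groups of 4 libraries, the gap between the outermost value and its neighbour, as a share of the group's range on the log2 scale, passed 0.829 for 5 of the 63 sets of values with enough reads; chance alone gives about 1 in 20. In E12.5_UB the far library was E12.5_UB 4, which was the highest for Csf1r (gap 0.925) and for Mrc1 (gap 0.851). In E11.5_UB it was E11.5_UB 3, the lowest for C1qc (gap 0.849). The other 2 were in groups with few reads: Csf1r in iNP (gap 0.872) and Mrc1 in E12.5_SP (gap 0.829).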

How the results depend on the processing

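The calls of all 10 genes in the 6 comparisons of embryonic ureteric bud with iUB, nephron or stromal progenitors held under every alternative that tested all of them. When 1 ureteric bud library was left out and 4 libraries still had to pass the filter, the genes dropped out by construction: the count in E12.5_UB against E12.5_SP was then 1 for each of the 4 libraries (1 to 10 over all libraries left out, stromal ones included), and the other 5 comparisons gave no value. With 3 libraries required, an alternative chosen after seeing the data, all 10 were called again.

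Between E12.5_UB and E11.5_UB, where 1 gene was called, a fit of all 36 libraries called 5 (7.51% of all genes were called lower), no filter 0 (6.62%), quantile normalisation 2 (12.6%), edgeR 2 (13.3%), DESeq2 2 (16.6%), and leaving out single libraries 0 to 4 (7.79% to 19.1%). With the replicate number as a block, although the numbers showed no pairing of these libraries, 2 were called (8.01%). The difference of Ptprc, 0.02, turned to -0.061 (quantile normalisation), -0.0091 (edgeR) and -0.022 (DESeq2), and ran from -0.10 to 0.17 as single libraries were left out. Without the filter, 8 genes were called in iSP against E11.5_SP, 2 in iSP against E12.5_SP, 1 between the ages of NP and 3 in E11.5_NP against E11.5_SP, and a fit of all 36 libraries called 1 in each of the iSP comparisons. With the replicate block and no filter, chosen after seeing the data, 6 genes were called in iSP against E11.5_SP (24.6% of all genes were lower; Mrc1 and C1qa were lost), 2 in iSP against E12.5_SP (19.7%), 3 in E11.5_NP against E11.5_SP (16.6%; Adgre1, Tyrobp and C1qc, with Csf1r lost at an adjusted p of 0.0860, limma) and 2 in E12.5_NP against E12.5_SP (20.2%). Ptprc was then not called between the ages of NP (adjusted p = 0.0677, limma). Same-numbered libraries deviated together in all pairs only between E12.5_NP and E12.5_SP. The lack of this elsewhere does not show that other sorts came from different mice. For the difference of age effects, where none was called, edgeR called 1. Against stromal progenitors that difference turned positive with the pseudocount 0.1 for C1qa (0.059), C1qb (0.52), C1qc (0.017) and Tyrobp (0.52), and with edgeR for C1qa (0.20), C1qb (1.57) and Tyrobp (2.03). None of these was past the threshold. The causes were not tested. With the filter, the block added the call of Csf1r between the ages of UB and changed no other. Outside the embryonic ureteric bud no library held more than 32 reads of a gene, so differences there were at the limit of depth.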
